A study of Mus musculus with 10 samples.

Results

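Axin2, Tbx3 and 8 further direct target and feedback genes of canonical Wnt signaling (Nkd1, Rnf43, Znrf3, Lgr5, Lef1, Tcf7, Apcdd1 and Sp5) were followed in fetal mouse liver lacking paternal Mir483. The 10 genes were chosen by their role in the pathway together with earlier values of this same genotype contrast, in which Axin2 and Tbx3 were lower. Their fold changes, intervals and threshold calls, all from the fit over every gene, are therefore given as a description, without p-values, and are no independent evidence that these genes differ. All 10 were among the 55401 genes of the count table, and 9 of the 10 were among the 14098 genes with enough counts to be tested. Sp5 was not.

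Canonical Wnt ligands bind Frizzled receptors and the LRP5 and LRP6 co-receptors, which stops the Axin, APC and GSK3 destruction complex from degrading β-catenin. β-catenin then enters the nucleus and activates genes bound by TCF and LEF factors. Many of these targets encode inhibitors of the pathway itself, so that their transcripts serve as readouts of Wnt activity. In the adult liver the pathway is most active in hepatocytes around the central vein, where endothelial cells release Wnt2, Wnt9b and R-spondin 3.

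RNA-seq was performed on livers of female fetuses at E18.5 (days of embryonic development). Mir483Pat-KO fetuses (n = 5) inherited a deletion of Mir483, a microRNA gene within an intron of Igf2, from the father. WT littermates (n = 5) were the controls. The deletion was made by Cre in JM8.F6 embryonic stem cells of the C57BL/6N strain, and the colony was kept on C57BL/6J. It is constitutive, so every tissue of the fetus carried it. Cells of independent stem cell clones were injected into blastocysts, and which clone these fetuses descend from is not stated in the sources used here. Bulk liver at this stage also holds blood-forming cells, and fewer cells of a type cannot be told apart from less RNA per cell. Whether the libraries of a group came from separate litters is not stated, and p-values set the genotype difference against the spread between these libraries.

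Libraries held 10831350 to 14765880 counts each. Mir483 had 10 to 22 counts per library in WT and 0 in every Mir483Pat-KO library, at least 5.00-fold lower against a floor of 3 counts per library. In polyA libraries such counts come from precursor or host transcripts, not from the mature microRNAs. Hepatocyte markers were abundant in all libraries. The summed level of 10 such genes, among them Alb and Afp, ran from 248681 to 276548 CPM (the counts of a gene relative to the scaled total of its library) across the WT libraries and from 231132 to 262590 CPM across the Mir483Pat-KO libraries. Identification numbers in the labels fell into a lower range (WT 1 to 4, Mir483Pat-KO 1 and 2) and an upper range (WT 5, Mir483Pat-KO 3 to 5), whose meaning is not given. WT libraries carried index numbers 53 to 57 and Mir483Pat-KO libraries 60 to 64, and this order cannot be told apart from genotype.

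The mature products of the deleted gene are shown because their seeds, bases 2 to 8 in capitals, set which sites were searched for in the 10 genes. They are RefSeq entries on the minus strand of chromosome 7 in GRCm38.p6, at chr7:142654932-142654952 for the 3p arm and chr7:142654968-142654989 for the 5p arm, and their seeds differ.
miR-483-3p: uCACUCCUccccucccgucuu
miR-483-5p: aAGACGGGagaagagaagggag

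A 7-base match to the miR-483-3p seed lay in the longest annotated 3′ UTR of 1 of the 9 tested genes, Tbx3, and in 12.6% of 12869 genes tested that have an annotated 3′ UTR. In Tbx3 it occupied chr5:119683351-119683357 on the plus strand (GRCm38), starting at base 259 of a 3′ UTR of 1632 bases. A match to the miR-483-5p seed lay in Lef1 and Apcdd1, against 3.28% of the same 12869 genes. The Lef1 site was at chr3:131223958-131223964 on the plus strand, from base 889 of a 3′ UTR of 1287 bases. Axin2 held a match to neither seed. The Tbx3 and Lef1 sites are shown with their flanks, at chr5:119683343-119683365 and chr3:131223950-131223972, with the match in capitals. A match describes the letters and does not show that the microRNA binds there.
Tbx3, miR-483-3p site: ggggcgggAGGAGTGgtggcaaa
Lef1, miR-483-5p site: tttggcagCCCGTCTcacttagt

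The letters around the start sites were examined because TCF and LEF factors bind short words of this kind. RefSeq windows from 250 bases before to 50 bases after a start site (GRCm38.p6) were at hand for 6 of the 10 genes, with 11 windows in all. There was none for Tbx3, Znrf3, Lgr5 or Apcdd1. The words CTTTGAT and CTTTGAA, on either strand, occurred in 1 of the 11 windows, that of Sp5, and in 8.65% of 32851 windows of all genes. The 5-letter core CTTTG, which both words contain, occurred in 5 of the 11 windows, from 2 of the 6 genes. These were Sp5 and Lef1, and some of the Lef1 windows overlap each other. The core occurred in 53.9% of all windows. The Axin2 window held neither the words nor the core, with a GC content of 70% and 31 CpG dinucleotides. The absence of these letters from the window says nothing of sites elsewhere in the gene. The 250 bases before the Axin2 start site (chr11:108920099-108920348, plus strand) and the stretch around the Sp5 word (chr2:70474799-70474845, plus strand, the word in capitals, starting 104 bases before the start site) are printed here.
Axin2, before the start site: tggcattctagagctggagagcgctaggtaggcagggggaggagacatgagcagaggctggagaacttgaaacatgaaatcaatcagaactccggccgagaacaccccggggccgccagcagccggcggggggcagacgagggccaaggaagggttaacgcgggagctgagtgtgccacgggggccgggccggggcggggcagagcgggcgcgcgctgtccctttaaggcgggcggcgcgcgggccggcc
Sp5, around the word: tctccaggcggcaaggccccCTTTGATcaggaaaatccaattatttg

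Of the 9 tested genes, Axin2 and Tbx3 passed an adjusted p of 0.05 toward lower levels in Mir483Pat-KO, and 0 passed toward higher levels. Over all 14098 genes tested, 5.19% passed, 2.76% toward lower and 2.43% toward higher levels. Both genes also passed the additional requirement of a fold change over 1.5, which 1.23% of all genes met. In these same 2 genes every Mir483Pat-KO library lay below every WT library, as in 3.26% of all genes, whereas the groups overlapped in the other 7. Because this contrast was used to choose the genes, nothing is read from these counts. The median log2 fold change was −0.16 for the 9 genes and 0.0042 for all genes tested. The plot of CPM by library shows each of the 9 genes.

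**Figure D1:**
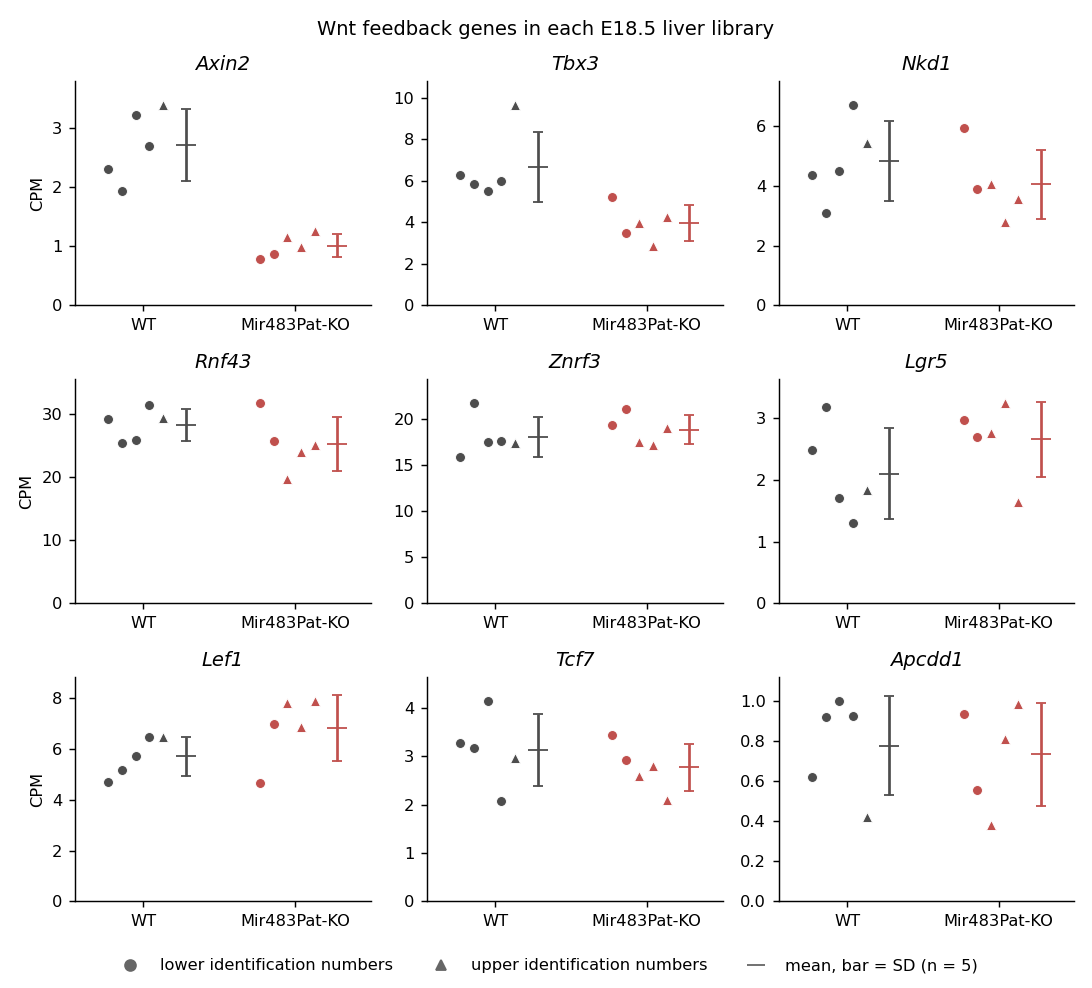
CPM (linear axis from 0) of the 9 tested genes in each of the 5 WT and 5 Mir483Pat-KO libraries, with circles for the lower and triangles for the upper range of identification numbers, and the mean with its SD beside each group. The groups are separate for Axin2 and Tbx3 and overlap for the other 7 genes.

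Axin2 (ENSMUSG00000000142, chromosome 11, 108920349 to 108950783, plus strand, GRCm38) encodes a scaffold of the β-catenin destruction complex and is the most widely used readout of canonical Wnt activity. Its level in WT replicates 1 to 5 was 2.31, 1.93, 3.22, 2.70 and 3.38 CPM. In Mir483Pat-KO replicates 1 to 5 it was 0.781, 0.873, 1.15, 0.993 and 1.25 CPM. The highest Mir483Pat-KO library thus lay below the lowest WT library, and Axin2 was 2.67-fold lower in Mir483Pat-KO (2.71 CPM ± 0.609 against 1.01 CPM ± 0.193, SD, n = 5 per group). On the log2 scale the change was −1.42 (SE 0.230, 95% interval −1.87 to −0.96). Of the 14098 genes tested, 17 had a lower log2 fold change.

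These Axin2 levels rest on few reads. WT libraries held 23 to 48 Axin2 counts and Mir483Pat-KO libraries 10 to 19. In WT the spread between libraries was 22.5% of the mean, and counting alone gives 16.8%. In Mir483Pat-KO the spread of 19.1% was below the 27.5% that counting alone gives, so differences among these 5 libraries were not detectable at this depth. Within the lower range of identification numbers 4 WT libraries averaged 2.54 CPM and 2 Mir483Pat-KO libraries 0.827 CPM, a log2 ratio of −1.62. Within the upper range it was 3.38 CPM in the only WT library and 1.13 CPM in 3 Mir483Pat-KO libraries, a log2 ratio of −1.58. Axin2 was thus lower in Mir483Pat-KO within both ranges.

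Tbx3 (ENSMUSG00000018604, chromosome 5, 119670669 to 119684724, plus strand) encodes a T-box transcription factor that fetal liver progenitors need to expand. In the adult liver it marks hepatocytes close to the central vein. In WT replicates 1 to 5 it stood at 6.30, 5.86, 5.51, 6.01 and 9.65 CPM. In Mir483Pat-KO replicates 1 to 5 it stood at 5.23, 3.49, 3.98, 2.89 and 4.28 CPM. The gap between the groups was narrow, from 5.23 CPM in the highest Mir483Pat-KO library to 5.51 CPM in the lowest WT library, and WT replicate 5 stood far above the other WT libraries. Tbx3 was 1.67-fold lower in Mir483Pat-KO (6.67 CPM ± 1.69 against 3.97 CPM ± 0.878, SD, n = 5 per group), and the change on the log2 scale was −0.74 (SE 0.186, 95% interval −1.11 to −0.38). Without WT replicate 5 the log2 fold change was −0.56, and Tbx3 no longer passed the threshold. It also missed it when Mir483Pat-KO replicate 2, 3 or 4 was left out, with log2 fold changes of −0.71, −0.75 and −0.66.

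With 70 to 137 counts per WT library and 32 to 67 counts per Mir483Pat-KO library, Tbx3 was better sampled than Axin2. Its spread of 25.4% of the mean in WT and 22.1% in Mir483Pat-KO exceeded the 10.7% and 13.9% expected from counting. Within the lower range of identification numbers the log2 ratio of the group means was −0.44 (4 WT libraries at a mean of 5.92 CPM, 2 Mir483Pat-KO libraries at 4.36 CPM). Within the upper range it was −1.38, from 9.65 CPM in the only WT library and 3.72 CPM in 3 Mir483Pat-KO libraries. Tbx3 was thus lower in both ranges, by unequal amounts, and the upper value rests on WT replicate 5.

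Nkd1 and Axin2 both act inside the cell as negative feedback regulators. Nkd1 (ENSMUSG00000031661, chromosome 8, 88521354 to 88594884, plus strand), whose protein binds Dishevelled, stood at 4.35, 3.10, 4.51, 6.70 and 5.43 CPM in WT replicates 1 to 5. In Mir483Pat-KO replicates 1 to 5 it stood at 5.93, 3.89, 4.06, 2.80 and 3.55 CPM. The groups overlapped, with 4 of 5 Mir483Pat-KO libraries inside the WT range. The log2 fold change was −0.25 with a 95% interval from −0.67 to 0.17, which spans both no difference and a decrease close to that of Tbx3. It moved to −0.44 without Mir483Pat-KO replicate 1 and to −0.12 without WT replicate 4, and in the lower range of identification numbers alone it was 0.066.

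Rnf43 and Znrf3 encode related transmembrane ubiquitin ligases that remove Frizzled receptors from the cell surface. They were the best sampled of the 10 genes, with 257 to 416 counts of Rnf43 and 179 to 288 counts of Znrf3 per library. Rnf43 (ENSMUSG00000034177, chromosome 11, 87662722 to 87735539, plus strand) averaged 28.2 CPM ± 2.54 in WT livers and 25.2 CPM ± 4.31 in knockout livers (SD, n = 5 each). Of its Mir483Pat-KO libraries, 3 lay below and 1 lay above all WT libraries. Znrf3 (ENSMUSG00000041961, chromosome 11, 5276324 to 5444847, minus strand) ranged from 15.9 to 21.7 CPM over the WT libraries, and all 5 Mir483Pat-KO libraries lay inside this range, with a mean of 18.8 CPM ± 1.57 (SD). The log2 fold changes were −0.16 (95% interval −0.38 to 0.049) for Rnf43 and 0.063 (−0.12 to 0.25) for Znrf3.

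Lgr5 (ENSMUSG00000020140, chromosome 10, 115450311 to 115587780, minus strand) encodes a receptor for R-spondins, secreted proteins that protect Frizzled from these ligases. Its log2 fold change was 0.34 with a 95% interval from −0.15 to 0.83, and it moved to 0.20 without WT replicate 4 and to 0.53 without WT replicate 2. WT libraries ran from 1.31 to 3.18 CPM and Mir483Pat-KO libraries from 1.65 to 3.25 CPM. The groups overlapped over nearly their whole range, and 1 Mir483Pat-KO library lay above all WT libraries. Libraries held 17 to 38 Lgr5 counts. The spread between them was 35.0% of the mean in WT and 22.8% in Mir483Pat-KO, above the 19.4% and 17.2% that counting alone gives.

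Lef1 and Tcf7 encode DNA-binding partners of β-catenin and are also expressed in lymphoid precursors. Lef1 (ENSMUSG00000027985, chromosome 3, 131110471 to 131224356, plus strand) stood at 4.71, 5.19, 5.72, 6.47 and 6.48 CPM in WT replicates 1 to 5. In Mir483Pat-KO replicates 1 to 5 it stood at 4.68, 6.98, 7.81, 6.86 and 7.90 CPM. Apart from replicate 1, which lay below all WT libraries, the Mir483Pat-KO libraries lay above all WT libraries. The log2 fold change was 0.26 with a 95% interval from −0.041 to 0.56. It was 0.36 without Mir483Pat-KO replicate 1 and 0.071 in the lower range of identification numbers alone. Exons of genes on the opposite strand cover 13.7% of the Lef1 exon bases, against 3.80% in Axin2, 1.74% in Tbx3 and 0 in the other 7 genes. The strand setting of the counting is not stated, and their part in the Lef1 value was not tested.

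Tcf7 (ENSMUSG00000000782, chromosome 11, 52252371 to 52283014, minus strand) averaged 3.13 CPM ± 0.741 in WT livers and 2.78 CPM ± 0.484 in knockout livers (SD, n = 5 each). All 5 Mir483Pat-KO libraries lay inside the WT range, and the log2 fold change was −0.18 (95% interval −0.58 to 0.21). Summed over 11 markers of B-lymphoid progenitors, the level was 122 to 155 CPM over the WT libraries and 139 to 172 CPM over the Mir483Pat-KO libraries, with no marker at 0 throughout. Of 10 T and NK lymphoid markers, 5 were under 10 counts in every library. The part of lymphoid cells in the levels of Lef1 and Tcf7 was not tested.

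Apcdd1 and Sp5 were at the limit of detection. Apcdd1 (ENSMUSG00000071847, chromosome 18, 62922231 to 62961179, plus strand) encodes a membrane-bound inhibitor of Wnt signaling. It had 5 to 15 counts per library, with means of 0.778 CPM ± 0.246 (WT) and 0.735 CPM ± 0.258 (Mir483Pat-KO; SD, n = 5 each), and its 95% interval ran from −0.73 to 0.59 on the log2 scale. Its spread of 31.6% of the mean in WT matched the 31.6% that counting alone gives. Sp5 (ENSMUSG00000075304, chromosome 2, 70474923 to 70477729, plus strand), a zinc-finger factor induced by Wnt in the early embryo, had 2 counts in all, 1 in WT replicate 3 and 1 in Mir483Pat-KO replicate 4. A count of 0 allows between 0.197 and 0.271 CPM in a library, by the floor of 3 counts, so that no difference in Sp5 was detectable at this depth.

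**Figure D2:**
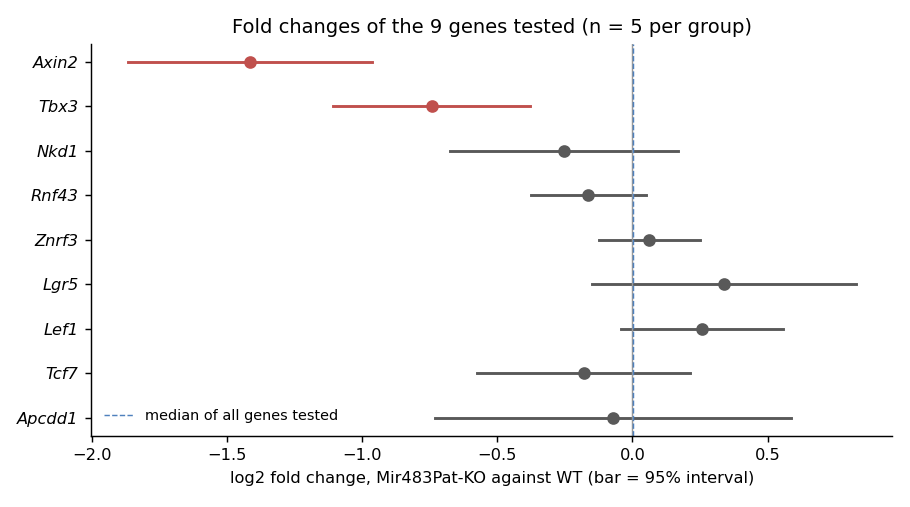
Log2 fold change of Mir483Pat-KO against WT (x axis) for the 9 tested genes, with 95% intervals as bars, in red where the gene passed the threshold. Axin2 and Tbx3 lie left of 0 with intervals that end before it, and the intervals of the other 7 genes, from −0.25 for Nkd1 to 0.34 for Lgr5, include 0.

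The order of the genes was compared on a per-length scale, in units of TPM (transcript abundance, as counts per kilobase of exon scaled to the same total in every library). In WT the order was Rnf43 (12.1 TPM ± 1.22), Znrf3 (6.39 ± 0.731), Tcf7 (3.34 ± 0.778), Nkd1 (2.97 ± 0.871), Tbx3 (2.82 ± 0.701), Lef1 (1.82 ± 0.269), Axin2 (1.38 ± 0.316), Lgr5 (0.572 ± 0.192), Apcdd1 (0.170 ± 0.0546) and Sp5 (0.0192 ± 0.0429; SD, n = 5). Ranges over libraries overlapped between Tcf7 and Nkd1, between Nkd1 and Tbx3, between Lef1 and Axin2 and between Apcdd1 and Sp5, so that these neighbors were not separated. The ubiquitin ligase genes were thus well above the other feedback genes, and Rnf43 exceeded 52.4% of the genes tested while Axin2 exceeded 8.69%. In Mir483Pat-KO, Tbx3 (1.71 TPM ± 0.382) stood below Lef1 (2.23 ± 0.431), and Axin2 (0.524 ± 0.104) below Lgr5 (0.739 ± 0.162), in each case with overlapping ranges. Per length of the longest transcript in place of all exons, Lef1 (3.49 TPM) and Tbx3 (2.98 TPM) stood above Tcf7 (2.82 TPM) and Nkd1 (2.64 TPM) in WT.

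**Figure D3:**
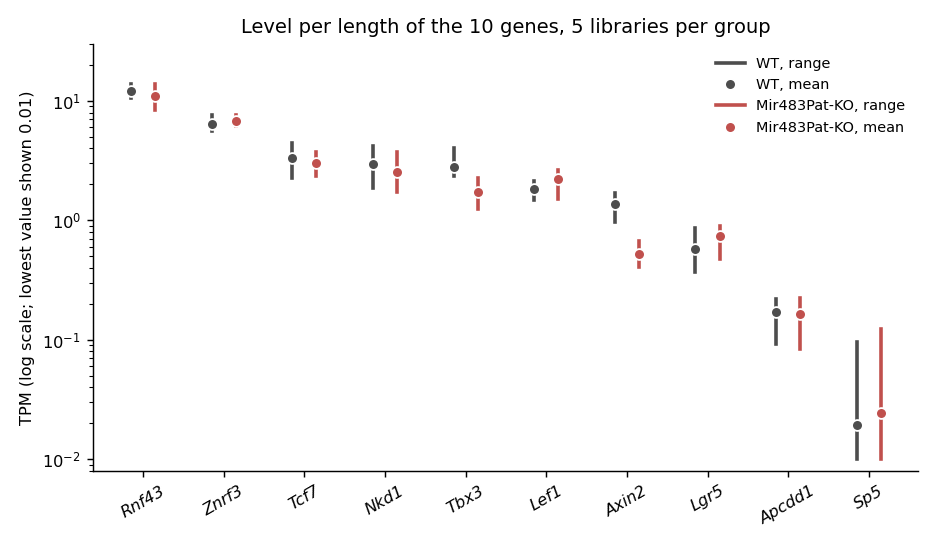
TPM (log axis) of the 10 genes in 5 WT (gray) and 5 Mir483Pat-KO (red) libraries, with points at the mean and lines over the range, values under 0.01 drawn at 0.01. The genes are in order of their WT mean, from Rnf43 at 12.1 TPM to Sp5 at 0.0192 TPM.

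The rest of the pathway was examined in 6 lists of signaling components, which together held 93 genes, of which 60 were tested. Of these 60, 1 passed the threshold, Btrc, and it was higher in Mir483Pat-KO. This is 1.67% of the 60, below the 5.19% of all genes tested, so that the count says nothing particular of the pathway. Btrc encodes a subunit of the ubiquitin ligase that marks β-catenin for degradation, and it averaged 61.7 CPM ± 4.78 in WT livers and 76.4 CPM ± 9.33 in knockout livers (SD, n = 5 each). On the log2 scale the change was 0.31 (SE 0.0852, edgeR, adjusted p = 0.0467), and 4 of 5 Mir483Pat-KO libraries lay above all WT libraries. It passed in 9 of 20 alternative settings. The change fell to 0.14 with GC content and length offsets (adjusted p = 0.474) and to 0.097 in the lower range of identification numbers alone (adjusted p = 0.661), so its size depends on these settings. Among the other 20 of 21 tested genes of the destruction complex and its regulators, 0 passed. β-catenin itself (Ctnnb1) averaged 272 CPM ± 16.9 in WT livers and 261 CPM ± 17.8 in knockout livers (log2 change −0.061, edgeR, adjusted p = 0.644), with 14.6% of its exon bases overlapped by genes on the opposite strand.

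Of 19 Wnt ligand genes, 3 (Wnt2, Wnt4 and Wnt9a) were tested, 13 were under the count filter with at least 1 count, and 3 had no count in any library. Wnt4, named after its values were seen, was the most abundant at 13.0 TPM ± 5.51 in WT livers, a level like that of Rnf43. Its CPM ran from 11.2 to 34.0 over the WT libraries and from 14.9 to 18.9 over the Mir483Pat-KO libraries, all inside the WT range (log2 change −0.21, edgeR, adjusted p = 0.580). Wnt2 averaged 3.31 CPM ± 0.424 in WT livers and 3.11 CPM ± 0.554 in knockout livers (log2 change −0.10, edgeR, adjusted p = 0.778). Wnt9b was under the count filter, at 0.602 CPM ± 0.174 in WT livers and 0.483 CPM ± 0.295 in knockout livers. Rspo3 averaged 4.82 CPM ± 1.10 in WT livers and 4.40 CPM ± 1.42 in knockout livers (log2 change −0.15, edgeR, adjusted p = 0.740), and exons of a gene on the opposite strand cover 13.1% of its exon bases. Without Mir483Pat-KO replicate 1 the log2 changes were −0.18 for Wnt2 and −0.34 for Rspo3, and in the lower range of identification numbers alone they turned to 0.0094 and 0.15. For Wnt2, Wnt9b and Rspo3, the endothelial signals of the adult central vein, the groups overlapped. The median log2 fold change was −0.19 for 5 tested genes of ligands and their secretion, −0.15 for 3 R-spondin and receptor genes, −0.053 for 12 Wnt receptors, −0.30 for 7 secreted inhibitors, 0.013 for 21 genes of the destruction complex and −0.11 for 12 nuclear effectors, beside 0.0042 for all genes tested.

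Of 12 tested Wnt targets known from other tissues, among them Myc and Ccnd1, 0 passed, and the median was −0.052. Genes of the liver zones were examined as well. Of 15 tested perivenous hepatocyte genes, which lie near the central vein and depend on Wnt there in the adult, 6 passed and all 6 were lower, a share of 40%, beside 2.76% of all genes tested that passed toward lower levels. This list and the periportal one were chosen with earlier results of these data known. Their counts are a description, and the adjusted p-values of their genes show which genes passed over the whole table, not independent evidence for the lists. These included Cyp2e1, an ethanol-oxidizing cytochrome, at 145 CPM ± 56.1 in WT livers and 53.3 CPM ± 28.7 in knockout livers (log2 change −1.45, edgeR, adjusted p = 0.0109). Under the robust fit of the same 10 libraries the change of Cyp2e1 was also −1.45 and missed the threshold (adjusted p = 0.0785). Nr1i3, a nuclear receptor for xenobiotics, changed by −0.87 (log2, adjusted p = 0.0046), although 74.9% of its exon bases overlap genes on the opposite strand. Gulo, an enzyme of vitamin C synthesis, changed by −0.72 (log2, adjusted p = 0.0056). Rnase4, a secreted ribonuclease, also changed by −0.72 (log2, adjusted p = 0.0038), with 13.4% of its exon bases shared with a gene on the same strand. Lhpp and Aldh3a2, which the naming rule of 4 genes per list leaves out and which were named after their values were seen, were the other 2. Glul (glutamine synthetase), also named after its values were seen, did not pass (log2 change −0.19, adjusted p = 0.136).

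The 11 tested periportal hepatocyte genes mark the opposite zone in the adult. Of these, 3 passed and all 3 were lower, a share of 27.3%, beside the same 2.76% of all genes. They were Cyp2f2, a cytochrome of the periportal zone, with a log2 change of −0.81 (edgeR, adjusted p = 0.0041) and 13.5% of its exon bases overlapped on the opposite strand, and the urea cycle enzymes Cps1 at −0.65 (adjusted p = 0.0041) and Ass1 at −0.31 (adjusted p = 0.0227). Without Mir483Pat-KO replicate 2, Ass1 missed the threshold at a log2 change that was still −0.31 (adjusted p = 0.0520). The perivenous gene Lhpp missed it without Mir483Pat-KO replicate 4, at −0.66 in place of −0.69 (adjusted p = 0.0542). In the lower range of identification numbers alone, with 4 WT and 2 Mir483Pat-KO libraries, 0 genes of either list passed, while all 9 stayed lower, from −0.32 for Ass1 to −1.04 for Cyp2e1. The medians were −0.19 for the perivenous and −0.30 for the periportal list. Whether the lists differ from each other was not tested.

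**Figure D4:**
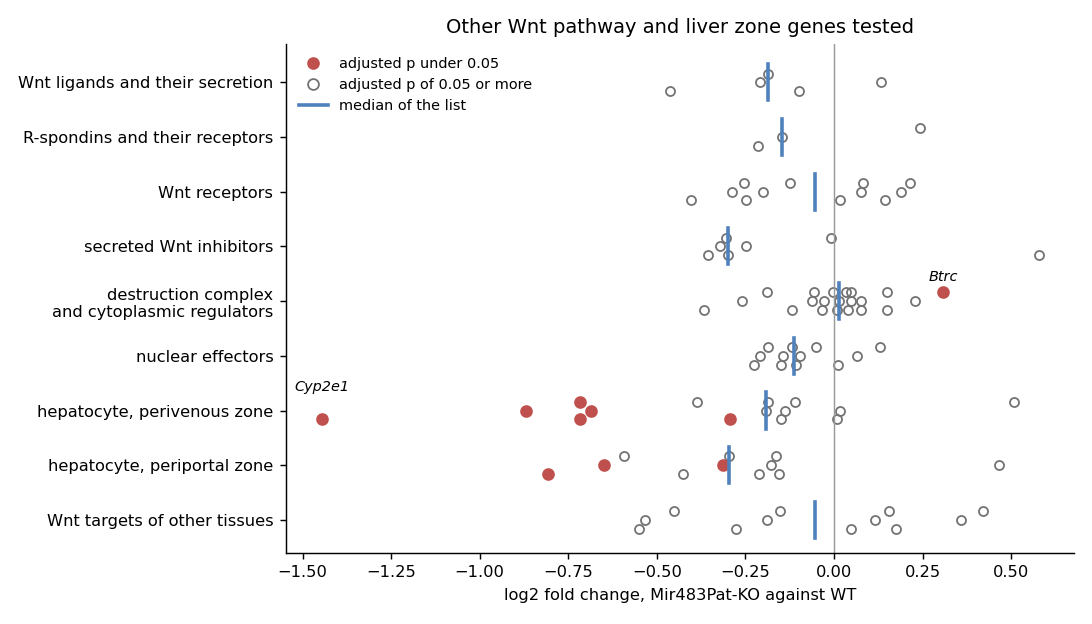
Log2 fold change of Mir483Pat-KO against WT (x axis) for the 98 tested genes of the 9 lists, 1 point per gene, filled in red where the adjusted p was under 0.05, with a blue bar at the median of each list. Of the 10 filled points, 9 lie left of 0 in the hepatocyte zone lists and 1, Btrc, lies to the right.

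Cell type markers were compared to see what else differed between these livers. Their counts of passing genes stand beside 2.76% of all genes tested that passed toward lower and 2.43% toward higher levels. The summed hepatocyte markers averaged 263480 CPM ± 11127 in WT livers and 241874 CPM ± 14617 in knockout livers (SD, n = 5 each, exact two-sided permutation test, p = 0.0556, adjusted over 11 marker lists 0.153). Of 10 hepatocyte markers, 1 passed toward lower levels, and their median log2 fold change was −0.13. Sinusoidal endothelial markers summed to 586 CPM ± 24.9 and 538 CPM ± 34.9 (exact permutation test, p = 0.0476, adjusted 0.153) and 0 of 10 passed. Stellate and mesenchymal markers summed to 968 CPM ± 219 and 735 CPM ± 119 (exact permutation test, p = 0.0952, adjusted 0.210), with a median log2 fold change of −0.39 and 0 of 10 passing. Erythroid markers summed to 9702 CPM ± 1076 and 11941 CPM ± 1602 (exact permutation test, p = 0.0556, adjusted 0.153), with 2 of 9 higher. Proliferation genes summed to 2103 CPM ± 145 and 2458 CPM ± 55.3, with 2 of 8 higher (exact permutation test, p = 0.00794, the smallest this design allows, adjusted 0.0873). In the other 6 lists (cholangiocyte, macrophage, neutrophil, megakaryocyte, B-lymphoid and T and NK lymphoid) the exact permutation p ran from 0.357 to 0.810, with 2 macrophage markers lower and 1 B-lymphoid marker higher. Except for Cftr, Gp1bb and the 5 lymphoid genes above, every marker of the 11 lists reached 10 counts in at least 1 library. The part of cell composition in the values of Axin2 and Tbx3 was not tested.

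Within genotypes, correlations among the feedback genes ran in both directions. The deviations of Axin2 and Tbx3 from their genotype means had a Pearson r of 0.20 over the 10 libraries. For Axin2 the deviations were closest to those of Lef1 (0.74) and most opposed to those of Lgr5 (−0.71). For Tbx3 the closest member was Nkd1 (0.59), and Lef1 and Tcf7 were opposed to each other (−0.63). These values are descriptive, since the points share library depth and the counts are few.

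Across all 10 libraries, the log2 CPM of Axin2 was most like that of Asgr2 (Pearson r 0.96), Nr2f6 (0.96), Cideb (0.95), Atf5 (0.95) and Adcy6 (0.94), out of 12549 genes whose mean log2 CPM was 1 or more. The log2 CPM of Tbx3 was most like that of C3 (0.97), Smtn (0.96), Plg (0.96), Ecm1 (0.95) and Ripor1 (0.95). With the genotype means removed, the genes nearest to Axin2 were Cd5l (0.95), Pald1 (0.94), Ppard (0.94), St6galnac4 (0.94) and Ahdc1 (0.93), none of them among the 5 before. For Tbx3 they were Chd4 (0.92), Oat (0.92), C3 (0.91), Plg (0.91) and Smtn (0.90), so that 3 of 5 were named by both measures. Any gene that differs between the genotypes correlates over all 10 libraries. The highest of 12549 values over 10 libraries are large in part by selection, and both measures share the deviations within genotypes. These likenesses are given as a description.

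The estimates of the genes that did not pass moved with single libraries. Rnf43 lay between −0.27 and −0.097, reached by leaving out Mir483Pat-KO replicates 1 and 3 in turn. Znrf3 lay between 0.010, when Mir483Pat-KO replicate 2 was left out, and 0.13, when WT replicate 2 was. Tcf7 ran from −0.31 (without WT replicate 4) to −0.065 (without WT replicate 3), and Apcdd1 from −0.24 (without WT replicate 5) to 0.081 (without Mir483Pat-KO replicate 3).

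**Figure D5:**
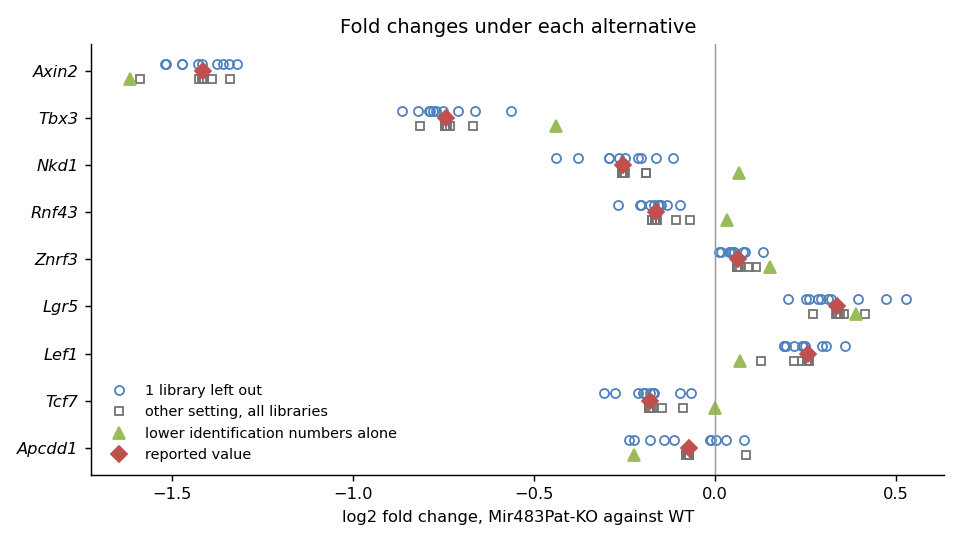
Log2 fold change of Mir483Pat-KO against WT (x axis) for the 9 tested genes under the reported setting (red diamonds), with 1 library left out (blue circles), in the lower range of identification numbers alone (green triangles) and in the other settings (gray squares). Axin2 stays between −1.62 and −1.32 and Tbx3 between −0.87 and −0.44, whereas Nkd1, Rnf43, Tcf7 and Apcdd1 have settings on both sides of 0.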

How the data were processed

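Liver RNA of 10 female fetuses (5 WT and 5 Mir483Pat-KO) was profiled by stranded polyA RNA-seq. The authors aligned reads to GRCm38 with STAR and deposited raw counts for each Ensembl gene. The strand and multimapping rules of the counting are not given in the sources used here. Groups were taken from the sample labels. Of 55401 genes, 55141 had a symbol. Gene positions and 3′ UTRs were taken from GENCODE M21 (GRCm38), and start-site windows and microRNAs came from RefSeq (GRCm38.p6).

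Counts were analyzed with edgeR 4.0.16 (R 4.3.3). After filterByExpr and TMM scaling, genotype was tested across 14098 genes by the quasi-likelihood F-test, with Benjamini-Hochberg adjustment. A gene passed at an adjusted p under 0.05. The 95% intervals are 1.96 standard errors either side. The common biological coefficient of variation was 0.111. All 20 within-group pairs of libraries differed beyond sampling noise (chi-square over its degrees of freedom at least 4.54), so none was treated as a repeat deposit of another. This does not show that they are independent, and replicates follow the labels. The floor of 3 counts, which a count of 0 allows, covers counting error only.

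The members and gene lists were chosen with earlier results of these data known. Named were the 10 members, Mir483, Wnt2, Wnt9b, Rspo3, Ctnnb1, up to 4 genes passing per list by smallest p, and the 5 genes most like Axin2 and Tbx3. CPM use TMM-scaled library sizes, and log2 CPM a prior count of 2. Summed markers were compared by exact permutation over 252 arrangements. Tested on simulated data of 13980 genes, 5 against 5 libraries, edgeR recovered 94% of 200 genes changed by a fold of 2. Of the genes that passed, 3.09% were unchanged. No identification number ranges or litters were simulated, nor changes smaller than a fold of 2, such as that of Tbx3. Genes of the lowest levels were not among those changed. Alternatives were RLE scaling, DESeq2 1.42.0, limma-voom (limma 3.58.1), a robust fit, both looser and stricter count filters, a replicate block, the identification number range, each library left out, and GC content and length offsets. Figures were drawn with matplotlib 3.10.9.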

Additional observations from a re-analysis of the deposited data

Results flagged for a closer look

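Of 40 groups of 5 values examined for a library far from the others, 2 stood out, and chance alone gives about 1 in 20. Tbx3 in WT replicate 5 was 9.65 CPM, with the next WT library at 6.30 CPM, a gap of 0.808 of the whole range against a critical value of 0.71. The count behind it was 137. Znrf3 in WT replicate 2 was 21.7 CPM, with the next WT library at 17.6 CPM, a gap of 0.714 of the range.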

How the results depend on the processing

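Axin2 and Tbx3 were lower in Mir483Pat-KO in all 20 alternatives run. Axin2 passed in 18 and missed in 1, the lower identification number range alone, and DESeq2 gave it no adjusted p. Tbx3 passed in 15. The members that passed and the members called both numbered 1 with DESeq2 and 0 in the lower range alone, where the Wnt pathway lists also had 0 genes that passed (4 against 2 libraries). With 1 library left out, the members that passed and those called numbered 1 to 2. Over the whole table, 731 genes passed, against 1167 with DESeq2, 1189 with the range as a covariate, 1258 without a count filter and 23 in the lower range alone, and 279 to 863 with 1 library left out (lowest for Mir483Pat-KO replicate 4, highest for WT replicate 2). Of these, 173 were called, against 321 without a count filter, 21 in the lower range alone, and 97 to 233 with 1 library left out (Mir483Pat-KO replicates 4 and 1). Leaving out Mir483Pat-KO replicate 2 or 3, or WT replicate 4 or 5, gave 396, 417, 425 and 403 genes that passed. Libraries were treated as unpaired, because the labels name no litters or pairs. Same-numbered libraries deviated together at a mean r of 0.0871 (−0.0496 to 0.261), against −0.0217 for others. Replicate numbers run within each genotype and need not mark littermates, so these values cannot show whether littermates deviate together. With the replicate block 1338 genes passed, and the members that passed stayed at 2. The causes were not tested. At this depth no difference in Sp5 was detectable.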
